A study of Mus musculus with 8 samples.

Results

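The MHC and antigen presentation genes described here were the gene models of the count table whose symbol starts with H2-, together with B2m, Tap1, Tap2, Tapbp, Psmb8, Psmb9, Psmb10, Cd74, Ciita and Nlrc5. There were 49 such gene models under 47 symbols, out of 27036 gene models in the table. On the class I side were 35, made up of 26 heavy chain genes and 9 models of the machinery that cuts, carries and loads peptides. On the class II side were 12, made up of 9 chain genes and 3 models of Cd74 and Ciita. The remaining 2, H2-Ke2 and H2-Ke6, lie in the MHC region but encode no MHC chain. Bulk RNA-seq was performed on prostate tissue from 3 WT mice, 3 mice with prostatic intraepithelial neoplasia (PIN) and 2 mice with prostatic adenocarcinoma (PCa), with 1 library for each tissue. The PIN and PCa tissues had been chosen under the microscope as made up mostly of atypical or tumor cells, whereas no such choice was described for WT. The PIN and PCa tissues were taken from animals that carry Osr1 Cre, the R26 mTmG reporter and a conditional transgene at the other R26 allele. Here Cre expressed from Osr1 switches on the transgene and a membrane GFP reporter in Osr1-expressing cells and their progeny, which in the prostate were luminal and basal epithelial cells by the study's staining. WT mice were matched for age and sex and were of genotype R26 mTmG/+:Osr1 Cre/+, with the same Cre and reporter and without the transgene. The study's experimental mice were of a mixed genetic background from 2 strains. Which strain's MHC alleles each animal carried is not given in the sources used here. The part of strain differences in the levels of the MHC genes was not tested. Ages were not given for these libraries in the sources used here. The labels were not checked against the transgene.

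MHC class I molecules pair a heavy chain with beta-2 microglobulin (B2m) and show peptides from inside the cell to cytotoxic T cells, on nearly every nucleated cell type. The peptides are cut by the proteasome, whose catalytic subunits can be exchanged for the immunoproteasome subunits Psmb8, Psmb9 and Psmb10, then carried into the endoplasmic reticulum by the Tap1 and Tap2 transporter and loaded with the help of tapasin (Tapbp). MHC class II molecules pair an alpha with a beta chain, are guided to endosomes by the invariant chain Cd74, receive peptide with the help of H2-DM, and are made mainly by dendritic cells, macrophages and B cells. Interferon-gamma raises both systems, through the coactivators Nlrc5 for class I and Ciita for class II.

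The promoters of the class I and class II genes share short elements to which these factors are recruited, and the 250 bases before the start of 5 genes that the results turn on are shown so that the shared elements can be seen. The sequences are from RefSeq on build GRCm38.p6, read 5′ to 3′ on the strand of the gene. Capitals mark matches, on either strand, to the NF-kappaB site of the class I enhancer (GGGGA and TCCC with any 1 base between them), the core of an interferon-stimulated response element (GAAA repeated after any 2 bases), TGACG (the X2 box, the core of a cAMP response element) and ATTGG (the Y box, an inverted CCAAT). H2-K1 lies at chr17:34000348-34000597 on the minus strand, H2-D1 at chr17:35262844-35263093 on the plus strand, B2m at chr2:122147437-122147686 on the plus strand, H2-Aa at chr17:34287824-34288073 on the minus strand and H2-Eb1 at chr17:34305617-34305866 on the plus strand.
H2-K1: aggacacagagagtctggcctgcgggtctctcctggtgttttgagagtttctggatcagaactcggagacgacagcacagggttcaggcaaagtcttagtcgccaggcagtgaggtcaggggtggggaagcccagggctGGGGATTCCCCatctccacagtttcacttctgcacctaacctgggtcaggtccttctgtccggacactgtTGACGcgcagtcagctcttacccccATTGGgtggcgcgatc
H2-D1: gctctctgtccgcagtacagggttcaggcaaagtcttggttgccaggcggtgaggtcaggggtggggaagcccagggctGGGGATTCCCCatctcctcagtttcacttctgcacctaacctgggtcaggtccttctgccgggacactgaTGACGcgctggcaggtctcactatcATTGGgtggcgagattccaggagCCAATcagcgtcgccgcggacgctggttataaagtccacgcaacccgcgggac
B2m: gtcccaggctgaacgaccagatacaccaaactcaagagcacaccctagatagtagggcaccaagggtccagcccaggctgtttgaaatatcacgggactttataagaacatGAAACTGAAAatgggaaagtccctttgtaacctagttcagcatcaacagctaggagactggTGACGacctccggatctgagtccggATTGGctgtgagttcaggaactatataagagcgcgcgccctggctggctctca
H2-Aa: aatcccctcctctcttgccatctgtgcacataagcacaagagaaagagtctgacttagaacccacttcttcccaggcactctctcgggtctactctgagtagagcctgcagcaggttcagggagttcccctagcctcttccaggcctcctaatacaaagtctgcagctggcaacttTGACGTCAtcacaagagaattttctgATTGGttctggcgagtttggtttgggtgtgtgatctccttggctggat
H2-Eb1: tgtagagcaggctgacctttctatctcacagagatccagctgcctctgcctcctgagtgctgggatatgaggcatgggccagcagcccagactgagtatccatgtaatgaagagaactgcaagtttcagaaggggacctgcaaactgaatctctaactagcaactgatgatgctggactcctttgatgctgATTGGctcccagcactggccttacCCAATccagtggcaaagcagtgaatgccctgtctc

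Across 40 RefSeq promoter windows, each running from before to just after a gene's start, that matched 37 of the 47 symbols, the NF-kappaB site was found in 12.5%, against 0.323% of all 32851 promoters, and it was held by H2-K1, H2-D1, H2-Q6 and H2-Q7. ATTGG was found in 85% of the windows against 37.4% of all promoters, and TGACG in 40% against 20.8%. The core of the interferon-stimulated response element was found in 7.5% against 3.44%, in B2m, H2-T22 and H2-T23, and TTCNNNGAA (the core of an interferon-gamma activated sequence) in 10% against 8.3%. Only exact matches were counted, here and in the sequences above. A window without a match, such as those of H2-K1 and H2-D1 for the interferon-stimulated response element, may still hold a variant of the element. TGACG followed on the same strand by ATTGG with 15 to 25 bases between them, a spacing chosen after the sequences above had been seen, was found in 17.5% of the windows and in 0.435% of all promoters. The gap was 20 bases in H2-K1, H2-D1, B2m and H2-M3, 21 bases in H2-Aa and 19 bases in H2-Q7. H2-Eb1 held ATTGG without an exact TGACG in its window, which does not show that it lacks an X2 box. Many of these genes arose from each other by duplication, so their promoters are not independent, and a match of letters describes the sequence without showing that it is used in these tissues. Cd74, Ciita, H2-Ab1, H2-Bl, H2-Ke2, H2-Q1, H2-T10, H2-T24, Nlrc5 and Tap2 were not matched.

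Values below are CPM, the read count of a gene relative to the library size after scaling with the trimmed mean of M-values. TPM, which also divides by exon length, is used for ratios between genes and where levels of different genes are set side by side, and sums over several genes are in CPM unless TPM is named. A gene was tested if it exceeded 1 CPM in 2 or more libraries, which 31 of the 49 gene models did and 18 did not. By class, the tested genes were 14 of 26 class I heavy chains, 7 of 9 models of class I machinery, 7 of 9 class II chains, 2 of 3 models of class II machinery and H2-Ke2. In every library 8 gene models were at 0. Of these, 6 were H2-M genes, and 2 were the models of Psmb9, which cover each other, share all of their coding sequence and overlap Tap1, so that a count of 0 there does not show whether Psmb9 is expressed. H2-DMb1 and H2-DMb2 are 95.9% identical in coding sequence and H2-T10 and H2-T22 are 96.5% identical, so reads may be split between the members of each pair and their values are uncertain. H2-T10, H2-T22, H2-T23, H2-T24, H2-Bl, H2-Q4, B2m, Psmb8, Psmb10, Tap1 and Tap2 overlap genes on the opposite strand, Tapbp and H2-Ob overlap other genes on the same strand, and H2-Aa and H2-Ab1 overlap each other by 88 bases. The strand setting of the counting is not given in the sources used here, so reads in such stretches cannot be assigned with certainty.

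Library totals ran from 21751803 to 29730420 counts in WT and from 27421827 to 28517421 in PIN, and were 23527628 and 24457124 in PCa 1 and PCa 2. WT 1 held transcripts of the seminal vesicle protein Svs2 at 11211 CPM, where WT 2 and WT 3 were at 0 and PCa 1 was at 2026 CPM. By the library numbers in the labels, WT 1 stands alone, WT 2 and WT 3 form a second series, and all PIN and PCa libraries form the third. A batch that followed these series cannot be told apart from the condition in any comparison with WT, whereas PCa and PIN belong to the same series. In bulk tissue, fewer cells of a type and less RNA per cell cannot be told apart. Markers of the prostate epithelium were present in every library, with the sum of 10 genes between 9860.3 and 29904 CPM in WT, between 10678 and 17351 CPM in PIN, and at 2909 and 2152 CPM in PCa 1 and PCa 2.

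None of the antigen presentation genes was called in any comparison of the groups. A call required a log2 fold change beyond 1 in either direction and an adjusted p below 0.05 in the quasi-likelihood test of edgeR, with Benjamini-Hochberg adjustment over all tested genes. The 2 PCa libraries stood apart from each other instead. PCa 1 held most of the genes above all WT libraries, and PCa 2 held most of them below. Of all tested genes, 8.54% were called in PCa against WT, 4.35% higher and 4.18% lower. In PCa against PIN 5.72% were called, 2.55% higher and 3.17% lower, and in PIN against WT 0%. At an unadjusted p under 0.05 there were 2 antigen presentation genes in PCa against WT (H2-T24 and Tapbp), 1 in PCa against PIN (H2-D1) and 0 in PIN against WT, where the shares of all tested genes were 27.5%, 22.8% and 3.51%. DESeq2 called 1 of the 31 genes in PCa against WT, where it called 9.34% of all tested genes higher and 8.38% lower. It called 0 of the 31 in PCa against PIN and in PIN against WT, where it called 1984 and 39 of all 14034 tested genes. Limma-trend called 0 of the 31 in all 3 comparisons. Of all tested genes it called 1323 in PCa against WT, 1001 in PCa against PIN and 0 in PIN against WT.

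**Figure D1:**
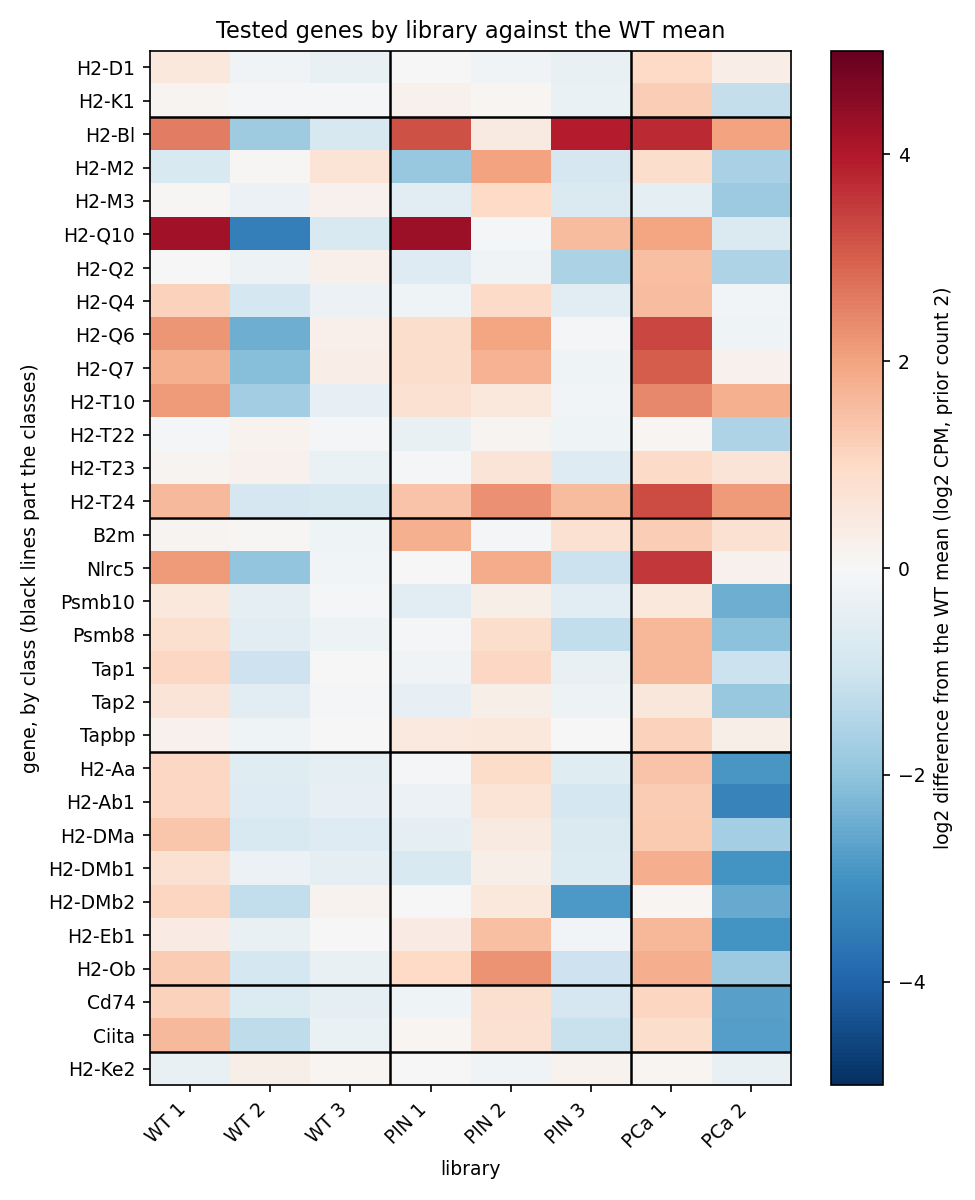
Each row is 1 of the 31 tested genes, ordered by class, and each column is 1 library; the colour gives the log2 difference in CPM (prior count 2) from the mean of the 3 WT libraries, red for higher and blue for lower. The column of PCa 1 is red for most genes, and in the column of PCa 2 the class II block is blue throughout, while WT 1 and PIN 2 are redder than the other libraries of their groups.

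H2-K1 and H2-D1 encode the classical class I heavy chains and were the most abundant heavy chain transcripts. In WT, H2-K1 reached 397 ± 74.0 TPM and H2-D1 reached 365 ± 148 TPM (SD, n = 3), against 5012 ± 773 TPM for B2m. H2-K1 stood at 373, 327 and 326 CPM in WT 1, WT 2 and WT 3, at 399, 365 and 273 CPM in PIN 1, PIN 2 and PIN 3, and at 803 and 151 CPM in PCa 1 and PCa 2. PCa 1 was thus above all 6 libraries of WT and PIN and PCa 2 below all 6, with PCa 1 at 2.35 times the WT mean and the WT mean at 2.27 times PCa 2. The same order held in TPM and in CPM of raw library totals. As a group, PCa differed from WT by a log2 fold change of 0.48 (SE 0.58, edgeR adjusted p = 0.639), a difference smaller than the spread between the PCa libraries.

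H2-D1 behaved differently from H2-K1 in PCa 2. It stood at 435, 266 and 233 CPM in the WT libraries, at 294, 264 and 234 CPM in the PIN libraries, and at 593 and 376 CPM in PCa 1 and PCa 2. Both PCa libraries were above every PIN library. PCa 2 lay within the range of WT in CPM, but above every WT library in TPM (576 against at most 533) and in CPM of raw totals. The log2 fold change of H2-D1 was 0.88 in PCa against PIN (SE 0.34, unadjusted p = 0.0334, edgeR adjusted p = 0.179) and 0.64 in PCa against WT (SE 0.34, edgeR adjusted p = 0.267), so neither passed. About 9.31% of the 100-base words of the H2-D1 coding sequence occur in another gene.

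B2m, the light chain shared by all class I molecules, stood at 1580, 1483 and 1243 CPM in WT, at 4907, 1364 and 2445 CPM in PIN 1, PIN 2 and PIN 3, and at 3319 and 2443 CPM in PCa 1 and PCa 2. Both PCa libraries and 2 of 3 PIN libraries were above every WT library, and PIN 1 was the highest of all. The log2 fold change of B2m was 1.02 in PIN against WT (SE 0.48, edgeR adjusted p = 1), 0.40 without PIN 1, and 1.01 in PCa against WT (SE 0.53, edgeR adjusted p = 0.261), and in PCa against PIN it was -0.01 (SE 0.53, edgeR adjusted p = 0.993). Tapbp encodes tapasin, which holds empty class I molecules at the transporter. It stood at 156, 115 and 138 CPM in WT, at 190, 195 and 137 CPM in PIN, and at 301 and 166 CPM in PCa 1 and PCa 2, so that both PCa libraries were above every WT library. Its log2 fold change in PCa against WT was 0.78 (SE 0.30, unadjusted p = 0.0353, edgeR adjusted p = 0.149), and 0.30 without PCa 1.

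**Figure D2:**
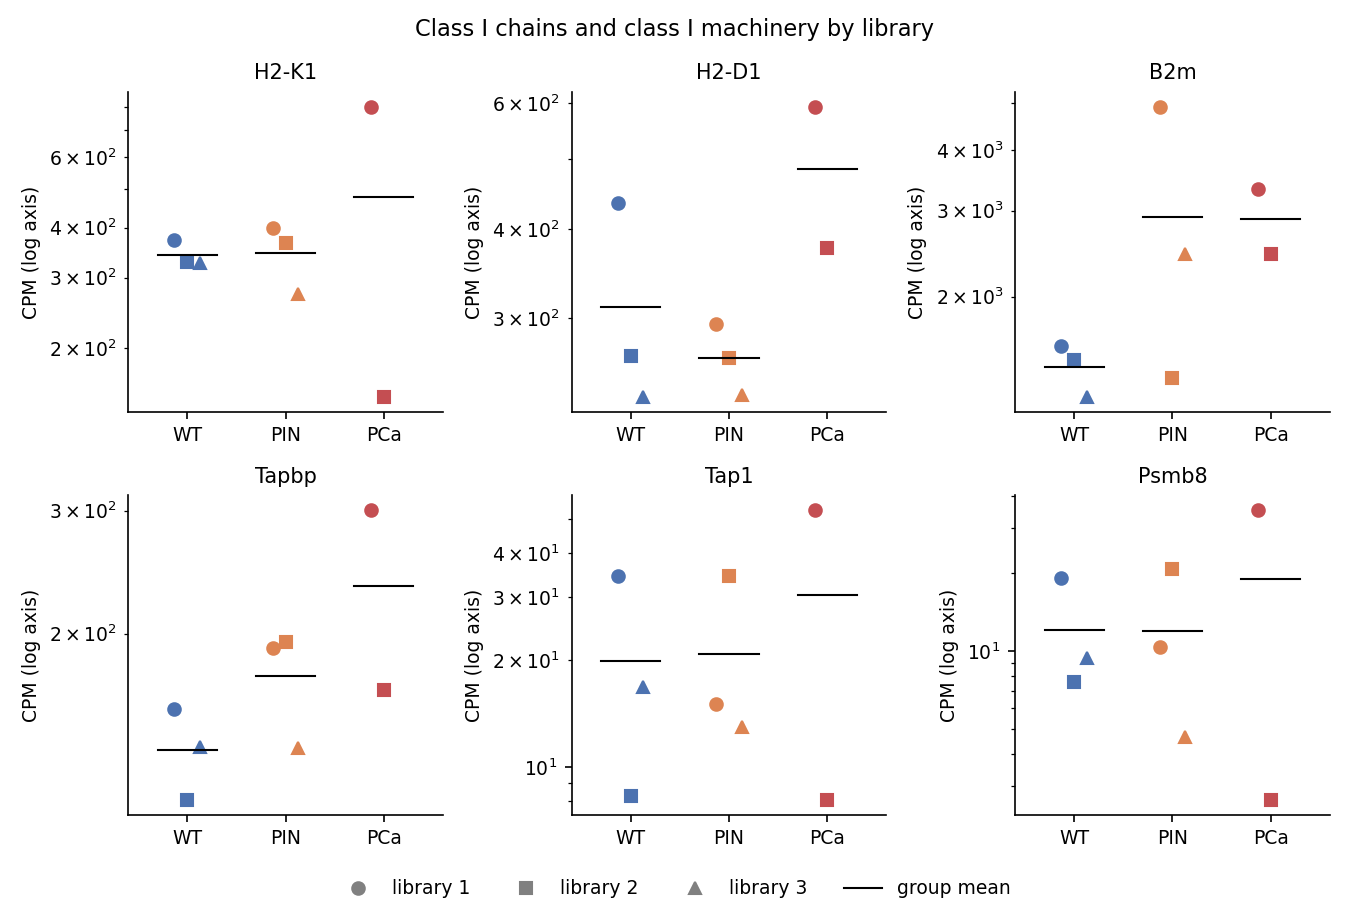
CPM on log axes for 2 classical heavy chains, B2m, Tapbp, Tap1 and Psmb8; each point is 1 library, its shape gives the library number and the black line is the group mean. H2-K1 and Psmb8 place PCa 1 above and PCa 2 below all other libraries, whereas B2m and Tapbp place both PCa libraries above every WT library.

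Heavy and light chains did not keep a fixed proportion between libraries. The ratio of H2-K1 to B2m in TPM was 0.0778, 0.0728 and 0.0864 in WT 1, WT 2 and WT 3, and 0.0268, 0.0883 and 0.0369 in PIN 1, PIN 2 and PIN 3. In PCa 1 it was 0.0798, within the range of WT, and in PCa 2 it was 0.0203, below all other libraries. The ratio of H2-D1 to B2m ran from 0.0595 to 0.0914 in WT and was 0.0199, 0.0642 and 0.0319 in PIN 1, PIN 2 and PIN 3 and 0.0594 and 0.0512 in PCa 1 and PCa 2. Exact two-sided permutation tests over libraries gave p between 0.3 and 0.9 for these 6 comparisons, where the smallest p that the design allows is 0.1, and 24 such tests of ratios were made in all.

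Tap1 and Tap2 form the peptide transporter. Tap1 stood at 34.5, 8.29 and 16.8 CPM in WT, at 15, 34.5 and 13 CPM in PIN, and at 53.0 and 8.06 CPM in PCa 1 and PCa 2. Tap2 stood at 40.5, 17.8 and 24 CPM in WT, at 19.3, 31.5 and 22 CPM in PIN, and at 37.8 and 6.96 CPM in PCa 1 and PCa 2. For both genes PCa 2 was the lowest of the 8 libraries, though for Tap1 not in TPM or in CPM of raw totals, and PCa 1 was the highest for Tap1. The log2 fold changes in PCa against WT were 0.62 (SE 0.85) for Tap1 and -0.29 (SE 0.66) for Tap2, with edgeR adjusted p = 0.683 and 0.813.

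Psmb8 and Psmb10 are immunoproteasome subunits, and Nlrc5 is the coactivator of class I genes. Psmb8 stood at 19.3, 7.61 and 9.37 CPM in WT, at 10.4, 20.7 and 4.63 CPM in PIN, and at 35.3 and 2.64 CPM in PCa 1 and PCa 2. Psmb10 stood at 16.2, 8.29 and 10.9 CPM in WT, at 7.67, 13.8 and 7.57 CPM in PIN, and at 16.6 and 2.06 CPM in PCa 1 and PCa 2. The groups overlapped for both genes, with PCa 1 highest and PCa 2 lowest of all libraries. Nlrc5 stood at 9.05, 0.453 and 1.79 CPM in WT, at 1.98, 7.47 and 0.904 CPM in PIN, and at 24.2 and 2.37 CPM in PCa 1 and PCa 2. Its log2 fold change was 1.82 in PCa against WT (SE 1.38, edgeR adjusted p = 0.439) and 1.94 in PCa against PIN (SE 1.38, edgeR adjusted p = 0.451), and PCa 2 lay within the range of WT. For Psmb8 and Psmb10 the log2 fold changes in PCa against WT were 0.65 (SE 0.99) and -0.34 (SE 0.77), with edgeR adjusted p = 0.716 and 0.811.

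Each immunoproteasome subunit takes the place of 1 constitutive subunit, Psmb8 that of Psmb5 and Psmb10 that of Psmb7, so the ratio within each pair was taken per library. The ratio of Psmb8 to Psmb5 in TPM was 0.291, 0.123 and 0.196 in WT, 0.297, 0.399 and 0.0919 in PIN, and 1.15 and 0.0524 in PCa 1 and PCa 2. In TPM, PCa 1 was the only library with more Psmb8 than Psmb5 transcripts, and PCa 2 had the lowest ratio. Which gene is ahead depends on the exon lengths used. In CPM, which leaves length out, PIN 2 also held more Psmb8 (20.7 CPM) than Psmb5 (at most 17.5 CPM in PIN). The constitutive subunits varied less: Psmb5 ran from 16.1 to 22.3 CPM in WT and was at 10.4 and 17.0 CPM in PCa 1 and PCa 2, Psmb6 from 74.0 to 112 CPM in WT with 75.6 and 54.6 CPM in PCa, and Psmb7 from 57.6 to 101 CPM in WT with 84.0 and 70.8 CPM in PCa. The ratio of Psmb10 to Psmb7 ran from 0.0783 to 0.269 in WT and from 0.0944 to 0.222 in PIN and was 0.189 and 0.0278 in PCa 1 and PCa 2. Exact two-sided permutation tests gave p between 0.5 and 1 for these 6 comparisons, with 0.1 as the smallest p possible. The ratio of Psmb9 to Psmb6 could not be taken, since Psmb9 was at 0.

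**Figure D3:**
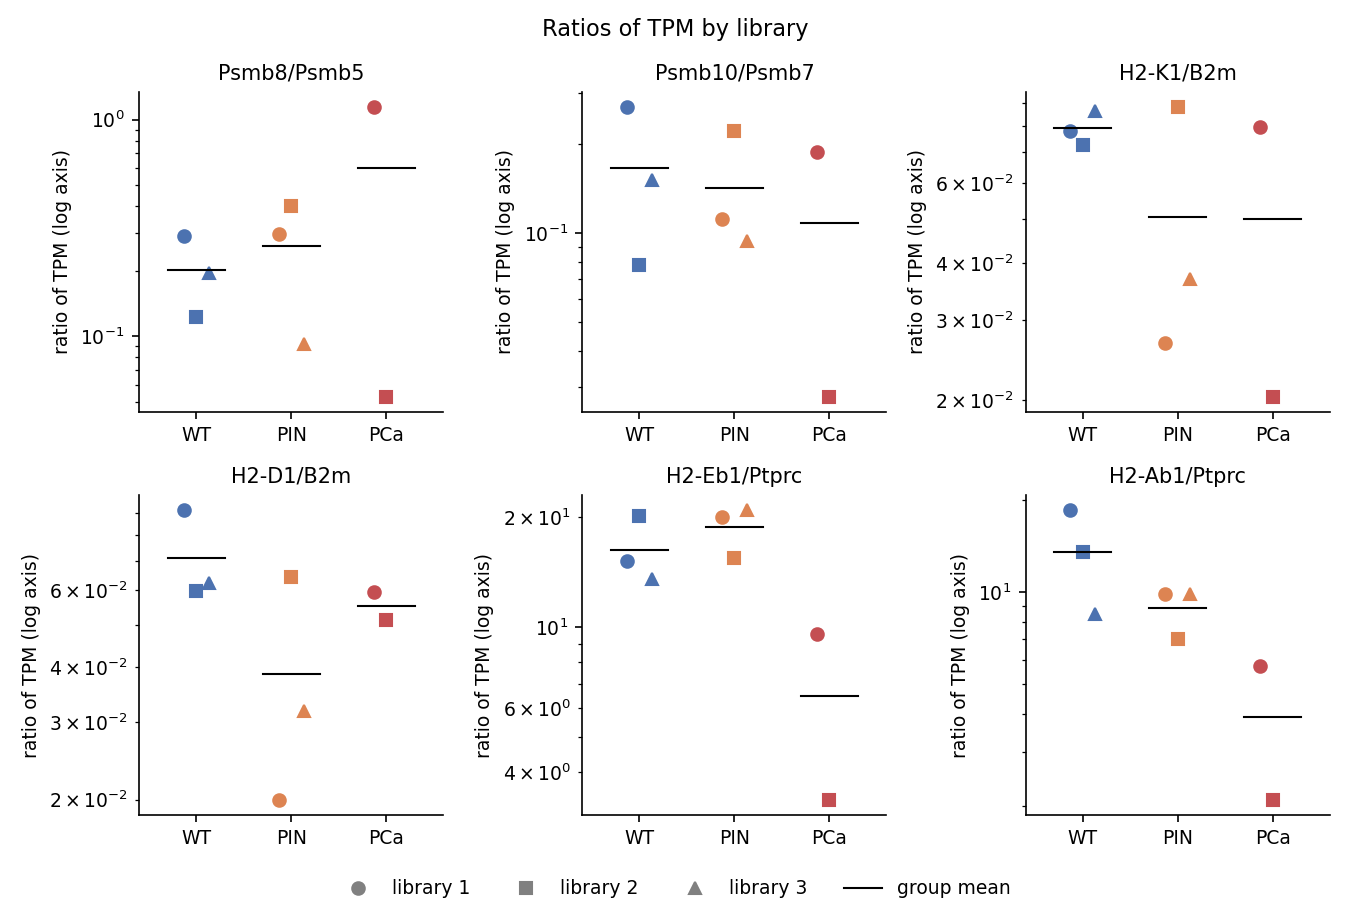
Ratios of TPM on log axes for 6 gene pairs; each point is 1 library, its shape gives the library number and the black line is the group mean. PCa 1 and PCa 2 are at opposite ends for Psmb8 over Psmb5, while both lie below all WT and PIN libraries for H2-Eb1 and H2-Ab1 over Ptprc.

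Of the other class I heavy chains, H2-T23 (Qa-1, a ligand of receptors on natural killer cells), H2-T22 and H2-Q4 are described first, as those with the highest mean CPM, a ranking that does not allow for gene length. H2-T23 stood at 36.7, 38.7 and 27.2 CPM in WT, at 32.1, 53.1 and 21.4 CPM in PIN, and at 65.2 and 52.8 CPM in PCa 1 and PCa 2. H2-T22 stood at 35.4, 41.6 and 34.0 CPM in WT, at 28.3, 41.1 and 31.9 CPM in PIN, and at 39.4 and 12.8 CPM in PCa 1 and PCa 2. H2-T23 in both PCa libraries exceeded all WT values, and H2-T22 was the lowest of all in PCa 2 and, in PCa 1, within the range of WT in CPM but above it in TPM and in CPM of raw totals. H2-Q4 stood at 31.8, 7.84 and 11.8 CPM in WT, at 12.5, 27.6 and 9.79 CPM in PIN, and at 41.4 and 13.1 CPM in PCa. Their log2 fold changes in PCa against WT were 0.79 (SE 0.37) for H2-T23, -0.51 (SE 0.44) for H2-T22 and 0.67 (SE 0.74) for H2-Q4, with edgeR adjusted p = 0.218, 0.499 and 0.605.

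The largest log2 fold changes among these genes in PCa against WT belonged to H2-T24, H2-Bl and H2-Q7. H2-T24 stood at 4.35, 0.725 and 0.769 CPM in WT, at 3.78, 6.85 and 4.26 CPM in PIN, and at 13.8 and 6.17 CPM in PCa 1 and PCa 2. Both PCa libraries exceeded all WT libraries, and its log2 fold change was 2.36 (SE 0.84, unadjusted p = 0.0233, edgeR adjusted p = 0.118). DESeq2 called H2-T24 at a log2 fold change of 2.39 (DESeq2 adjusted p = 0.0282), and edgeR called it without WT 1 at 3.74 (edgeR adjusted p = 0.0311), where 2.22% of all tested genes were called higher and 2.3% lower. H2-Bl stood at 1.43, 0 and 0.0732 CPM in WT, at 2.27, 0.276 and 3.84 CPM in PIN, and at 3.28 and 0.960 CPM in PCa. H2-Q7 stood at 6.48, 0.363 and 2.31 CPM in WT, at 3.42, 6.20 and 1.54 CPM in PIN, and at 15.4 and 2.13 CPM in PCa. The groups overlapped for both, with log2 fold changes of 2.09 (SE 1.62) and 1.53 (SE 1.17) and edgeR adjusted p = 0.448 and 0.442. The value for H2-Bl rests on 29, 0 and 2 counts in WT and ran from 0.97 to 5.61 with 1 library left out. H2-Q7 is 93% identical to H2-Q6 in coding sequence, and 18.3% of its 100-base words occur in another gene. H2-M3, which presents formylated peptides, was the 1 gene of the 31 for which both PCa libraries lay under the WT range of 3.49 to 4.90 CPM, at 2.96 and 1.17 CPM, with a log2 fold change of -1.05 (SE 0.68, edgeR adjusted p = 0.359). It is named for that after its values were seen, and in TPM and in CPM of raw totals PCa 1 lay within the range of WT. The 12 class I genes that were not tested stayed at or below 1.88 CPM in every library.

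The class II genes had the widest spread between the PCa libraries. H2-Aa and H2-Ab1 encode the alpha and beta chain of the I-A molecule. H2-Aa stood at 97.3, 31.5 and 34.7 CPM in WT, at 44.9, 90.2 and 31.4 CPM in PIN, and at 127 and 6.24 CPM in PCa 1 and PCa 2. H2-Ab1 stood at 63.0, 19.8 and 23.3 CPM in WT, at 25.3, 48.9 and 16.5 CPM in PIN, and at 73.6 and 2.95 CPM in PCa 1 and PCa 2. For both genes PCa 1 was the highest and PCa 2 the lowest of the 8 libraries, with PCa 1 at 20.3 times PCa 2 for H2-Aa and 24.9 times for H2-Ab1. H2-Eb1, the beta chain of I-E, stood at 37.2, 21.3 and 27.1 CPM in WT, at 37.1, 78.0 and 25.5 CPM in PIN, and at 88.9 and 3.43 CPM in PCa 1 and PCa 2, in the same order. The counts behind these values in PCa 2 were 182 for H2-Aa, 86 for H2-Ab1 and 100 for H2-Eb1. Since the PCa libraries lay on opposite sides of WT, the log2 fold changes in PCa against WT were 0.29 (SE 1.06) for H2-Aa, 0.11 (SE 1.10) for H2-Ab1 and 0.69 (SE 1.03) for H2-Eb1, with edgeR adjusted p = 0.892, 0.962 and 0.708.

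H2-DM removes the invariant chain fragment from class II molecules and H2-O restrains it. H2-DMa stood at 10.6, 2.36 and 2.53 CPM in WT, at 2.92, 5.44 and 2.37 CPM in PIN, and at 10.1 and 1.17 CPM in PCa 1 and PCa 2. H2-DMb1 stood at 5.54, 2.63 and 2.31 CPM in WT, at 1.87, 4.0 and 1.96 CPM in PIN, and at 11.7 and 0.343 CPM in PCa, where the last value rests on 10 counts. PCa 2 was the lowest library for both. H2-DMb2 and H2-Ob never exceeded 1.76 CPM, and stood in PCa 2 on 2 counts and 1 count. Across H2-DMa, H2-DMb1, H2-DMb2 and H2-Ob the log2 fold changes in PCa against WT were 0.12 (SE 0.99), 0.79 (SE 1.12), -1.05 (SE 1.40) and 0.74 (SE 1.48), with edgeR adjusted p = 0.954, 0.694, 0.672 and 0.784. H2-Oa and H2-Eb2 were not tested and stayed at or below 0.676 CPM.

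Cd74, the invariant chain, stood at 250.5 CPM in WT 1, 70.0 in WT 2 and 78.5 in WT 3, at 96.2, 195 and 62.0 CPM in PIN, and at 234 and 16.8 CPM in PCa 1 and PCa 2. Ciita, the coactivator on which class II transcription depends, stood at 6.48, 0.816 and 1.61 CPM in WT, at 2.20, 3.51 and 0.904 CPM in PIN, and at 3.83 and 0.240 CPM in PCa, with 7 counts in PCa 2. For both genes WT 1 was the highest library and PCa 2 the lowest in CPM, and PCa 1 lay within the range of WT, except that in TPM and in CPM of raw totals Cd74 was highest in PCa 1. The log2 fold changes in PCa against WT were -0.09 (SE 1.03) for Cd74 and -0.54 (SE 1.24) for Ciita, with edgeR adjusted p = 0.970 and 0.814. A second, short gene model named Ciita had at most 5 counts in a library and was not tested.

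**Figure D4:**
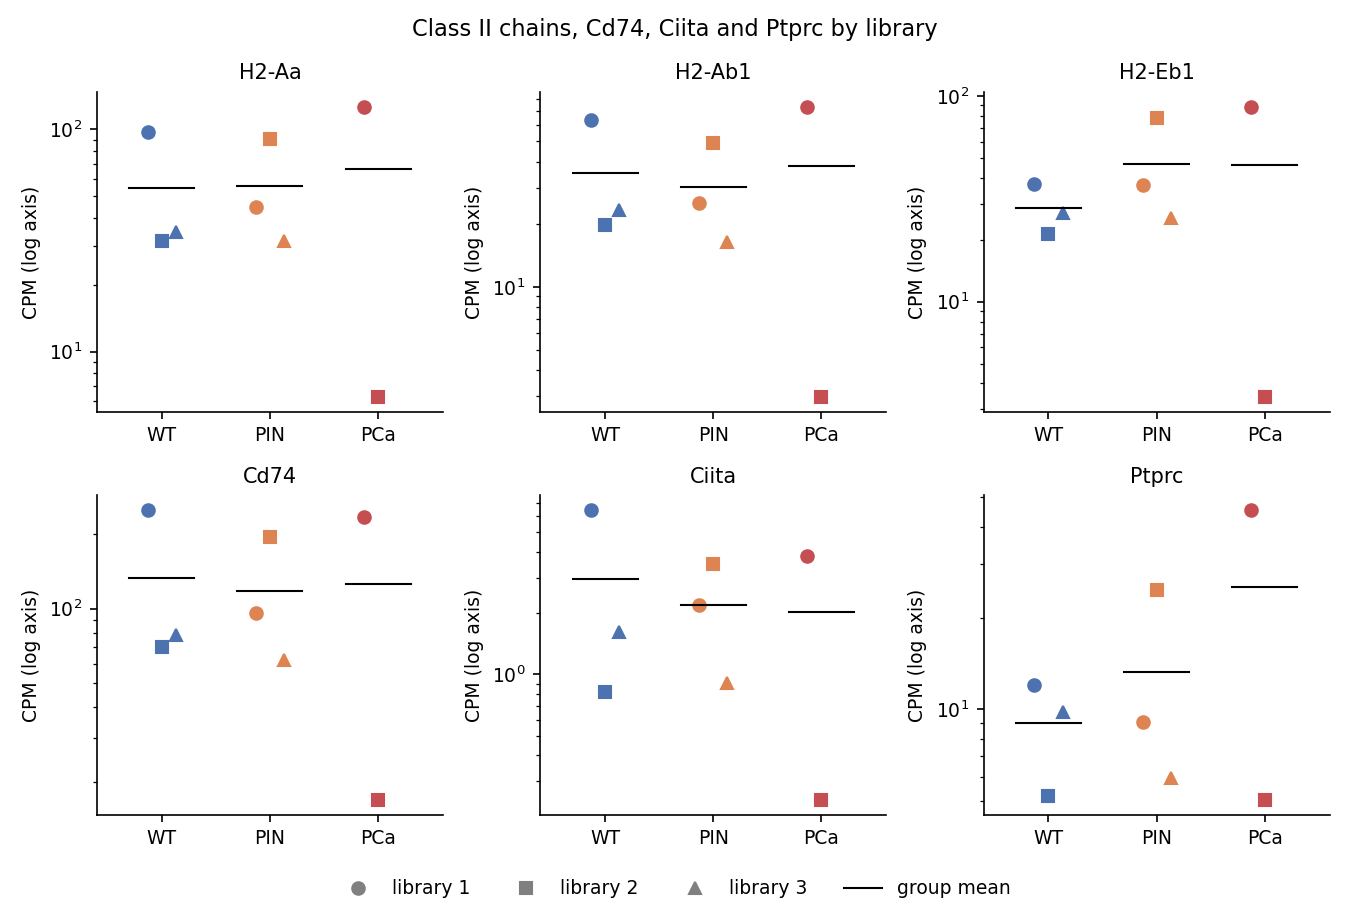
CPM on log axes for 3 class II chains, Cd74, Ciita and the leukocyte gene Ptprc; each point is 1 library, its shape gives the library number and the black line is the group mean. PCa 2 is the lowest library in all 6 panels, and WT 1, PIN 2 and PCa 1 are the highest of their groups.

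The proportions among the 3 main class II chains varied far less between libraries than their sum. H2-Aa made up between 30% and 37.6% of the class II chain TPM in every library, with 32.1% and 35.6% in PCa 1 and PCa 2. H2-Ab1 made up between 20% and 29.4%, and H2-Eb1 between 24%, in WT 1, and 44.2%, in PIN 2. H2-DMa made up 8.05% in PCa 2 and between 2.23% and 4.97% elsewhere. The sum of the 9 class II chains was 216, 78.1 and 91.2 CPM in WT, 114, 230.1 and 78.0 CPM in PIN, and 314 and 14.3 CPM in PCa 1 and PCa 2, a ratio of 22 between the PCa libraries. The sum of the 26 class I heavy chains was 970, 695 and 655 CPM in WT, 806, 794 and 592 CPM in PIN, and 1638 and 627 CPM in PCa 1 and PCa 2, a ratio of 2.61. For class I, PCa 2 was at 0.811 times the WT mean in CPM but at 1.11 times in CPM of raw totals and 1.06 times in TPM, so its direction depends on the scaling. For class II, the WT mean was 9.01 times PCa 2 in CPM, 6.74 times in CPM of raw totals and 6.99 times in TPM, and PCa 1 was between 2.44 and 3.62 times the WT mean on the 3 scales.

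The sums of general leukocyte, macrophage and dendritic cell markers were, like the main class II chains, highest in PCa 1 and lowest in PCa 2, whereas those of B cell, T cell, natural killer cell and neutrophil markers did not follow this order throughout. Of the dendritic cell markers, only Xcr1 and Cd209a kept this order themselves. Zbtb46 was highest in WT 2 (15.5 CPM, against 4.54 CPM in PCa 1) and Clec9a in WT 1. Itgax, Flt3, Clec9a and Ccr7 were not lowest in PCa 2, nor was the macrophage marker Emr1. Ptprc (CD45), carried by nearly all leukocytes, stood at 12, 5.17 and 9.77 CPM in WT, at 9.07, 24.7 and 5.95 CPM in PIN, and at 45.5 and 5.01 CPM in PCa 1 and PCa 2. The sum of all 4 leukocyte markers ran from 24.6 to 46.0 CPM in WT and from 18.1 to 65.4 CPM in PIN and was 140.3 and 13.5 CPM in PCa 1 and PCa 2. The 6 macrophage markers summed to between 59.4 and 145 CPM in WT, between 87.8 and 164 CPM in PIN, and 263 and 26.1 CPM in PCa, and the 7 dendritic cell markers to between 8.35 and 18.0, between 5.73 and 13.1, and 29.9 and 4.46 CPM. The 5 B cell markers summed to between 1.59 and 4.58 CPM in WT, between 1.15 and 8.09 CPM in PIN, and 5.25 and 0.480 CPM in PCa, and the 7 T cell markers to between 2.08 and 8.95, between 1.24 and 12, and 12.5 and 1.30 CPM. The 3 natural killer cell markers summed to between 1.31 and 1.54 CPM in WT, between 0.188 and 4.03 CPM in PIN, and 0.901 and 0.0343 CPM in PCa, and the 4 neutrophil markers to between 0.293 and 1.52 CPM in WT and PIN and 115 and 6.99 CPM in PCa 1 and PCa 2. Cd3d, Klrb1c and Gzma were at 0 in PCa 2 and in no other library, and Pax5 was at 0 in PCa 2 and in WT 1, WT 2, PIN 1 and PIN 3. S100a8, a neutrophil gene, was called higher in PCa against WT by edgeR, and no other leukocyte marker was called among those tested, which were 4 of 4 general leukocyte, 6 of 6 macrophage, 4 of 7 dendritic cell, 2 of 5 B cell, 5 of 7 T cell, 1 of 3 natural killer cell and 2 of 4 neutrophil markers. Their part in the class II levels was not tested.

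Per unit of Ptprc, 5 of the 9 tested class II genes (H2-Aa, H2-Ab1, H2-Eb1, Cd74 and Ciita) were lower in both PCa libraries than in every WT and PIN library, as were 9.61% of all tested genes. Ptprc itself, the denominator, was highest in PCa 1, and it is carried by nearly all leukocytes. Their mix differed in PCa, where neutrophil markers summed to 115 and 6.99 CPM in PCa 1 and PCa 2, against at most 1.52 CPM in WT and PIN. The ratio is therefore not a level per cell that makes class II. The ratio of H2-Eb1 to Ptprc in TPM was 15.1, 20.2 and 13.6 in WT, 20.0, 15.4 and 21.0 in PIN, and 9.57 and 3.35 in PCa 1 and PCa 2. The ratio of H2-Ab1 to Ptprc was 18.6, 13.5 and 8.44 in WT, 9.86, 7.0 and 9.81 in PIN, and 5.72 and 2.08 in PCa. The ratio in PCa 1 and PCa 2 was 8.16 and 3.65 for H2-Aa and 21.2 and 13.9 for Cd74. The H2-DM and H2-O genes overlapped with WT or PIN: H2-DMb1 to Ptprc was 1.01 in PCa 1 against 0.636 to 2.0 in WT and PIN, and H2-DMa to Ptprc was 0.785 and 0.825 in PCa against 0.780 in PIN 2. The mean log2 ratio of H2-Eb1 to Ptprc differed by -1.51 from WT and by -1.72 from PIN, and that of H2-Ab1 by -1.90 and -1.35. Exact two-sided permutation tests gave p = 0.1 for these 4 differences, the smallest p that 2 against 3 libraries allow, and 0.4 after adjustment over the 24 tests of ratios. For H2-Aa and Cd74 the exact permutation p was 0.2 against WT (0.6 adjusted) and 0.1 against PIN (0.4 adjusted). No difference of a ratio could pass at this number of libraries.

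The 2 PCa libraries were compared gene by gene, as a description without a replicate check. Each of the 31 tested genes was higher in PCa 1 than in PCa 2, where 50.3% of all tested genes were, and 20 were more than 4-fold higher, where 14% of all tested genes were. None was more than 4-fold lower, where 4.56% of all tested genes were. The median log2 difference between PCa 1 and PCa 2 was 2.71 over the 31 genes, 4.33 over the 7 class II chains, 2.71 over the 7 genes of class I machinery and 1.68 over the 14 class I chains, against 0.01 over all tested genes. The smallest gaps belonged to H2-T23 (0.30), B2m (0.44), H2-Ke2 (0.46), H2-T10 (0.62), H2-D1 (0.66) and Tapbp (0.86). PCa 1 was above every WT library for 22 of the 31 genes, against 32.9% of all tested genes, and below every WT library for 1, against 32.3%. PCa 2 was below every WT library for 19, against 36% of all tested genes, including all 7 class II chains, Cd74 and Ciita, and above every WT library for 4 (B2m, H2-T23, H2-T24 and Tapbp), against 31.9%. Set against WT and PIN together, PCa 1 was above all 6 libraries for 18 genes (27.8% of all tested genes) and below all for 0 (27.5%), and PCa 2 was below all for 16 (31.8%) and above all for 0 (27.9%). In TPM and in CPM of raw totals, on which PCa values stand higher relative to WT, PCa 1 was above every WT library for 27 genes and PCa 2 below for 17, still with all 9 class II genes. On the log2 scale, the median class II chain lay 1.42 above the WT mean in PCa 1 and at -2.91 relative to it in PCa 2, and the median class I chain at 1.51 and -0.18. As these genes share libraries, promoter elements and in part sequence, they do not count as separate observations.

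**Figure D5:**
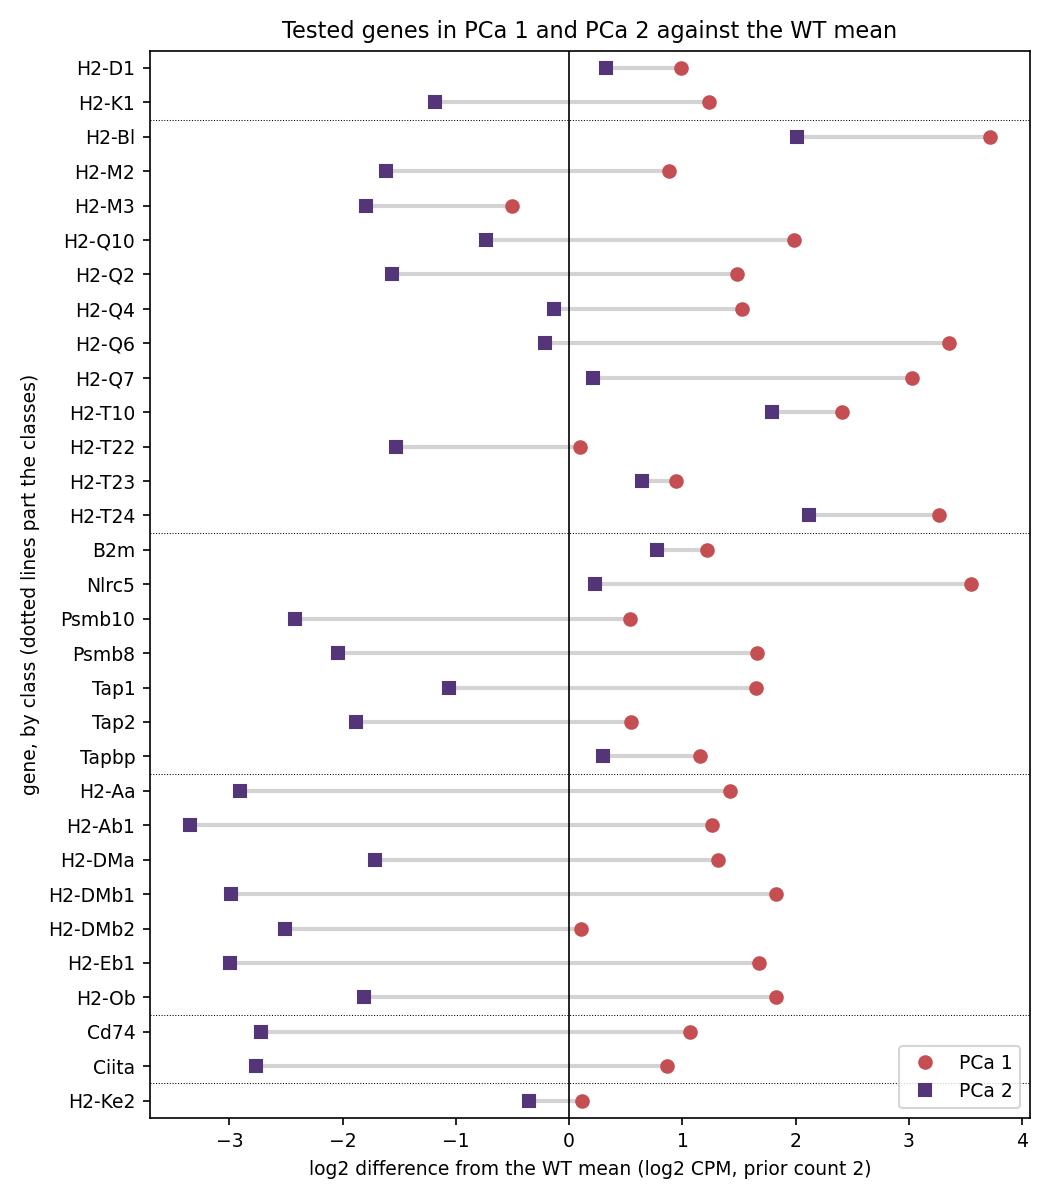
For each of the 31 tested genes, grouped by class, the log2 difference in CPM (prior count 2) of PCa 1 (red circle) and of PCa 2 (purple square) from the mean of the 3 WT libraries, which is the vertical line at 0. The 7 class II chains, Cd74 and Ciita have PCa 1 right of the line and PCa 2 left of it, between -1.72 and -3.35, while B2m, Tapbp, H2-D1, H2-T23 and H2-T24 have both libraries on the right.

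Fits that kept 1 PCa library, with the spread pooled over the remaining groups so that the lone library is assumed to vary like the others, gave calls in opposite directions. With PCa 2 alone against WT, 29 of the 31 genes could be tested, and edgeR called 7 lower and 0 higher, where 10.7% of all tested genes were called lower and 7.49% higher. These were H2-Ab1 at a log2 fold change of -3.57 (edgeR adjusted p = 0.0470), H2-DMb1 at -3.32 (0.0479), H2-Eb1 at -3.05 (0.0312), Psmb10 at -2.51 (0.0320), Tap2 at -1.97 (0.0499), H2-T22 at -1.53 (0.0180) and H2-K1 at -1.17 (0.0474), each an edgeR adjusted p. Against PIN, 4 of them were called lower (H2-Eb1, Psmb10, H2-T22 and H2-K1), and 0 higher, where 10.2% of all tested genes were called lower and 6.36% higher. With PCa 1 alone against WT, H2-K1 was called higher at 1.25 (edgeR adjusted p = 0.0429) and Tapbp at 1.16 (0.0497), where 5.09% of all tested genes were called higher and 4.97% lower. Against PIN H2-Q2 was called higher at 2.21 (edgeR adjusted p = 0.0423), where 3.18% were called higher and 3.88% lower. H2-K1, the gene called in both fits with WT, had opposite signs in them. These fits compare single libraries, not conditions.

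Between PIN and WT the genes were split in direction. Of the 31 tested genes, 15 had a log2 fold change above 0, where 48% of all tested genes did, and the median was -0.02, equal to that of all tested genes. For 0 of the 31 genes were all PIN libraries above or all below all WT libraries, where 6.48% and 6.38% of all tested genes were. The log2 fold changes of the classical heavy chains were 0.02 (SE 0.53) for H2-K1 and -0.24 (SE 0.31) for H2-D1, and that of H2-Eb1 was 0.72 (SE 0.94), each with an edgeR adjusted p = 1. Within the groups, WT 1 and PIN 2 were high, the median over the 31 genes of the log2 difference from WT being 1.03 in WT 1, -0.59 in WT 2 and -0.20 in WT 3, and of -0.04, 0.65 and -0.55 in PIN 1, PIN 2 and PIN 3. WT 1 and PIN 2 also had the highest sums of leukocyte markers in their groups, at 46.0 and 65.4 CPM.

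Between PCa and PIN, within 1 series of library numbers, 18 of the 31 genes had a log2 fold change above 0, where 54.3% of all tested genes did, and in PCa against WT it was 21, where 50.6% did. Both PCa libraries were above every PIN library for 2 genes (H2-D1 and H2-T10), where 21.1% of all tested genes were, and below every PIN library for 0, where 23.2% were. Both were above every WT library for 4 genes, where 17.7% were, and below for 1, where 19.6% were. The median log2 fold change over the 31 genes was 0.34 against PIN and 0.64 against WT, beside 0.07 and 0.01 over all tested genes. Under limma-trend neither lean was seen: 15 of the 31 genes had a log2 fold change above 0 in each comparison, with a median of -0.04 in both. H2-K1 differed from PIN by 0.46 (SE 0.58, edgeR adjusted p = 0.694) and H2-Aa by 0.26 (SE 1.06, edgeR adjusted p = 0.913).

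Of 50 listed genes that signal to, regulate or work with the MHC genes, 47 were tested, and in PCa against WT 1 was called higher and 0 lower, where 4.35% and 4.18% of all tested genes were. The 1 gene was Rsad2 (viperin), an antiviral gene induced by interferon, which stood at 5.49, 8.70 and 2.27 CPM in WT, at 5.47, 10.2 and 3.28 CPM in PIN, and at 79.1 and 28.8 CPM in PCa 1 and PCa 2. It rose by a log2 fold change of 3.30 against WT (SE 0.71, edgeR adjusted p = 0.0320) and 3.10 against PIN (SE 0.70, edgeR adjusted p = 0.0470), where it was again the 1 gene of the list called and 2.55% of all tested genes were called higher. The call against WT was lost without any 1 of WT 1, WT 3, PIN 1, PIN 3 and PCa 1 (edgeR adjusted p between 0.0537 and 0.0876), and that against PIN without any 1 library other than WT 2 and PCa 2 (between 0.0606 and 0.166). In the fit of the 2 groups alone both calls were lost, at edgeR adjusted p = 0.0992 and 0.0766, and with upper-quartile scaling that against PIN, at 0.0517. In all, Rsad2 was called in 9 of 16 alternatives against WT and in 7 of 16 against PIN. All 13 interferon-stimulated genes of the list had a log2 fold change above 0 in both comparisons with PCa, where 50.6% of all tested genes did against WT and 54.3% against PIN, and the other 12 did not pass. In PCa 1 all 13 lay above the WT mean, and in PCa 2 10 did, while Gbp2, Cxcl9 and Ifit3 lay at log2 differences of -1.99, -1.38 and -0.58 from it. Of 12 tested genes of interferon-gamma signalling 7 had a log2 fold change above 0 against WT and 5 against PIN, and of 7 factors that bind MHC promoters 4 and 3, with none called by edgeR. In PIN against WT 0 of the 47 were called by edgeR.

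Ifng itself had at most 3 counts in a library and was not tested. Irf1, a transcription factor at the promoters of Tap1 and the immunoproteasome genes, stood at 42.6, 23.8 and 33.6 CPM in WT, at 31.0, 42.8 and 24.6 CPM in PIN, and at 86.7 and 6.14 CPM in PCa 1 and PCa 2. Irf1 thus had PCa 1 above and PCa 2 below all other libraries, as Psmb8 and H2-K1 did. Rfx5, which binds the X box of MHC promoters, ran from 14.1 to 34.7 CPM in WT and from 27.8 to 33.5 CPM in PIN, and stood at 30.9 and 28.0 CPM in PCa 1 and PCa 2, within the range of WT. Ctss, the protease that trims the invariant chain, stood at 22.6, 19.7 and 12.6 CPM in WT, at 16.2, 47.2 and 10.5 CPM in PIN, and at 128 and 15.7 CPM in PCa 1 and PCa 2 (log2 fold change against WT 1.97, SE 0.88, edgeR adjusted p = 0.193).

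Of 5 class I-like genes outside the H2 names (Cd1d1, Mr1, Fcgrt, Hfe and Azgp1), 3 fell and 0 rose in PCa against WT, where 4.18% of all tested genes were called lower, and the same 3 genes fell against PIN, where 3.17% were. Mr1, which presents vitamin B metabolites to T cells, stood at 64.6, 135 and 98.6 CPM in WT, at 97.0, 101 and 118 CPM in PIN, and at 25.5 and 7.44 CPM in PCa 1 and PCa 2. Hfe, a regulator of iron uptake that binds B2m, stood at 25, 18.8 and 20.1 CPM in WT, at 23.1, 27.8 and 25.9 CPM in PIN, and at 8.37 and 7.61 CPM in PCa. Azgp1, a secreted class I-like protein, stood at 438, 378 and 279 CPM in WT, at 404, 306 and 470 CPM in PIN, and at 97.4 and 131 CPM in PCa. For all 3 genes both PCa libraries were below every WT and PIN library. The log2 fold changes against WT were -2.59 (SE 0.56) for Mr1, -1.41 (SE 0.24) for Hfe and -1.68 (SE 0.32) for Azgp1, with edgeR adjusted p = 0.0320, 0.0167 and 0.0235. Against PIN they were -2.68 (SE 0.56), -1.68 (SE 0.24) and -1.78 (SE 0.32), with edgeR adjusted p = 0.0379, 0.0152 and 0.0276. All 3 were called lower with either PCa library alone. Against WT, all 3 calls were lost in the fit of the 2 groups alone, at edgeR adjusted p = 0.124, 0.11 and 0.105, and against PIN those of Mr1 and Azgp1, at 0.0804 and 0.0516. Leaving out 1 library ended the call against WT for Mr1 without WT 2, WT 3 or any PIN library (edgeR adjusted p up to 0.0863), for Hfe without WT 3 or PIN 3 (up to 0.0545) and for Azgp1 without WT 1, PIN 1 or PIN 3 (up to 0.0527). Against PIN it ended the call for all 3 without any 1 PIN library, and for Mr1 also without WT 1 or WT 3, with edgeR adjusted p up to 0.127 for Mr1, 0.073 for Hfe and 0.107 for Azgp1. In all, Mr1 was called in 9, Hfe in 12 and Azgp1 in 11 of 16 alternatives, in each comparison. The sum of the prostate epithelial markers was lower in both PCa libraries, as given above. The 5 smooth muscle and fibroblast markers summed to between 1691 and 3847 CPM in WT, between 2771 and 4517 CPM in PIN, and 487 and 249 CPM in PCa 1 and PCa 2. Of these, Myh11, Acta2 and Des fell in PCa against both groups, with log2 fold changes against WT of -7.82, -6.36 and -6.65 (edgeR adjusted p = 0.00461, 0.00474 and 0.0104). The part of either marker list in the falls of Mr1, Hfe and Azgp1 was not tested. Cd1d1 and Fcgrt did not pass, and Fcgrt, the neonatal Fc receptor, stood at 21.6 and 2.81 CPM in PCa 1 and PCa 2 against 6.43 to 22.9 CPM in WT.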

How the data were processed

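RNA was depleted of ribosomal RNA and sequenced as paired-end libraries. Per the submitters' processing notes, the authors trimmed reads with cutadapt 1.9.1, aligned them to mm9 with HISAT2 2.1.0 and counted them per gene with HTSeq 0.6.1. The values deposited for each gene are counts that were not normalised, and the deposited exon length of each gene, another kind of value, was used for TPM. Here the counts of 8 libraries were fitted in 1 model with 3 groups by edgeR 4.0.16 in R 4.3.3 (quasi-likelihood F-test, trimmed mean of M-values with factors from 0.754 to 1.33, Benjamini-Hochberg adjustment over 14034 tested genes, 5 residual degrees of freedom). The common biological coefficient of variation was 0.489. P-values measure the spread between animals of a group. Ratios were tested by exact permutation. Alternatives were upper-quartile scaling, DESeq2 1.42.0, limma-trend (3.58.1, prior count 2), no filter, 2 groups alone, the newer quasi-likelihood method, no fold limit, a replicate block, and leaving out each library.

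The genes and lists were chosen with earlier results of these data known. Genes given with every library's value were the 10 named genes, H2-K1, H2-D1, tested class II genes, any other member called by the test, and of the other class I genes the 3 highest in mean CPM and the 3 with the largest absolute log2 fold change in PCa against WT. H2-DMb2 and H2-Ob, at few counts, are given by range. The coordinates of all 49 gene models matched GENCODE M1 on mm9, from which coding identity was computed. Promoters are from RefSeq on GRCm38.p6. The steps were tested on simulated counts. The identity of the transgene and the values of some genes are not reported here. The order of libraries on other scales and the ratios of the remaining class II genes to Ptprc were added after the data had been seen.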

Additional observations from a re-analysis of the deposited data

How the results depend on the processing

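Among the antigen presentation genes 0 were called in PCa against WT under upper-quartile scaling, limma-trend, no filter, 2 groups alone, the newer quasi-likelihood method and no fold limit, and 1 under DESeq2. Of all tested genes, the calls under these settings were, in order, 1108 of 14034, 1323 of 14034, 1070 of 21366, 130 of 13655, 1409 of 14034, 1261 of 14034 and 2487 of 14034. Leaving out 1 library gave 0 to 7 calls in PCa against WT and 0 to 4 in PCa against PIN. In all, 653 values were recomputed, of which 254 of those with 1 library left out and 293 of the others kept their direction and their side of the threshold. The limits are 2 PCa libraries, the gap between them, and counts of 10 or fewer for H2-DMb1, Ciita, H2-DMb2, H2-Ob and H2-M2 in PCa 2.

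The replicate numbers did not pair the samples: the deviations of same-numbered libraries correlated with a mean r of 0.0992 (from -0.0562 to 0.284 over 7 pairs). With a replicate block 0 genes of the set were called in each comparison. Of all 14034 tested genes, the block left 413 called in PCa against WT, 151 in PCa against PIN and 0 in PIN against WT. The block also ended the calls against WT and PIN of Rsad2 (adjusted p = 0.0636 and 0.0967), Mr1 (0.103 and 0.115), Hfe (0.0699 and 0.0664) and Azgp1 (0.0810 and 0.0943). With the block, 23 of 31 genes had a log2 fold change above 0 in PIN against WT (median 0.19), 16 in PCa against WT (median 0.0036) and 14 in PCa against PIN (median -0.14). The following directions turned. In PCa against WT the log2 fold change under limma-trend and with the replicate block was -0.19 and -0.11 for Psmb8, -0.75 and -0.52 for H2-Aa, -1.05 and -0.75 for H2-Ab1, -0.66 and -0.040 for H2-Eb1, -0.20 and -0.40 for H2-DMa and -0.58 and -0.020 for H2-DMb1, and with the block -0.25 for H2-Ob. In PCa against PIN it was 0.17 and 0.023 for B2m and -0.83 and -0.94 for H2-Aa. The cause was not tested. The log2 ratio of summed class I chains to the WT mean was 1.68 in CPM of raw totals and 1.42 in TPM for PCa 1, and 0.15 and 0.090 for PCa 2.

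With 1 library left out, the log2 fold change in PCa against WT ranged from -1.17 to 1.25 for H2-K1, -1.29 to 1.43 for Tap1, -1.97 to 0.48 for Tap2, -2.18 to 1.56 for Psmb8, -2.51 to 0.50 for Psmb10, -0.66 to 3.56 for Nlrc5, -1.53 to 0.10 for H2-T22, -0.38 to 1.47 for H2-Q4, -0.51 to 2.71 for H2-Q7, -3.12 to 1.23 for H2-Aa, -3.57 to 1.07 for H2-Ab1, -3.05 to 1.66 for H2-Eb1, -2.13 to 1.21 for H2-DMa, -3.32 to 1.76 for H2-DMb1, -2.97 to 0.83 for Cd74 and -3.59 to 0.75 for Ciita. In PIN against WT it ranged from -0.11 to 0.16 for H2-K1 and -0.41 to 0.086 for H2-D1, and in PCa against PIN from -1.19 to 1.24 for H2-K1, -0.35 to 0.62 for B2m, -3.14 to 1.21 for H2-Aa and -0.53 to 3.20 for Nlrc5. The difference of the log2 ratio of Psmb8 to Psmb5 ranged from -0.21 to 0.85 in PIN against WT, -1.87 to 2.59 in PCa against WT and -2.08 to 2.38 in PCa against PIN, and that of Psmb10 to Psmb7 from -0.60 to 0.29, -2.40 to 0.36 and -2.26 to 0.51. For H2-K1 to B2m it ranged from -1.96 to 0.017 in PCa against WT and -1.13 to 0.85 in PCa against PIN.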
